A study of Homo sapiens with 5 samples.

Results

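The response of the coding genes of MDA-MB-231 cells to 4 h of bortezomib was examined by setting 1 bortezomib library against 1 mock library, the pair that the labels name. MDA-MB-231 is an established human breast cancer line of mesenchymal character. Bortezomib is a proteasome inhibitor used in the clinic, and it served here as the standard against which the effects of proteasome inhibition could be read. Total RNA was sequenced in 5 libraries, 1 for each condition: bortezomib, the inhibitor CGI-1746, the inhibitor LU-102, a combination of CGI-1746 and LU-102, and mock. Neither the bortezomib dose nor the content of the mock treatment is given in the sources. Genes were compared when their level was at least 1 in the bortezomib or the mock library. Of 4202 genes in the table, 4189 were compared, and 3954 of these are protein-coding. With 1 library per condition there is no spread between replicates to set a difference against, and no significance test was made.

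The proteasome is the protease complex that degrades proteins tagged with ubiquitin. When it is blocked, cells are known to accumulate misfolded proteins and to induce heat shock chaperones through HSF1, proteasome subunits through NFE2L1, antioxidant genes through NFE2L2, and amino acid and unfolded protein response genes through ATF4. The inhibitor of NF-kB is itself a proteasome substrate, and many short-lived transcription factors are as well.

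The levels were deposited as a normalized signal per gene whose scale is not stated, and on short RNA genes they scaled as reads over gene length times a library factor. Ratios are given on the log2(level + 1) scale, and a coding gene was counted as higher or lower at 2-fold or more on that scale. The bortezomib library held less of its signal in coding genes than the mock library did. Coding genes made up 9.47% of the summed level with bortezomib and 38.4% in mock, and their summed level with bortezomib was 33.6% of that in mock. In the same libraries the 4 genes of the 45S ribosomal RNA precursor, which are near-identical copies, held 22.0% of the summed level with bortezomib and 1.84% in mock. Their part in the shift of coding genes was not tested. In bulk RNA, less messenger RNA per cell, more of the other RNAs and a change in only some of the cells cannot be told apart. The median coding level was 1.05 with bortezomib and 3.05 in mock. Levels were above mock for 242 coding genes and below mock for 3712, and 3668 of the 3954 (92.8%) were lower with bortezomib than in all 4 other libraries.

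As deposited, 21 coding genes were at least 2-fold higher with bortezomib, which is 0.531% of those compared, and 1941 were at least 2-fold lower, which is 49.1%. The median log2 ratio of all genes compared was -0.98. All ratios called relative below have this median subtracted, so that 0 marks the middle gene on the log2(level + 1) scale. The 1 added to each level draws the ratios of low-level genes toward 0, so this point depends on level. The median coding gene had a bortezomib level of 31.7% of mock. KRT8, at a mock level of 2.02 and a level ratio of 0.356, had a relative log2 ratio of 0.17. H2AC21, at a mock level of 20.5 and a level ratio of 0.444, had -0.11. Values in parentheses after a gene or its levels are relative log2 ratios. On the relative scale 231 coding genes (5.84%) were at least 2-fold higher and 311 (7.87%) were at least 2-fold lower. Under a scaling to the same summed coding level, before any median was subtracted, 398 genes were higher and 329 lower. With a median of -0.98 subtracted, a gene can pass 1 on the relative scale only if its deposited level was above mock. This holds for all 231 by the threshold itself. A gene could be counted as relatively lower only with a mock level of at least 2.94, which 2036 coding genes reached, and 15.3% of these were lower. Genes close to the thresholds were MYO18A at a relative log2 ratio of 1.001 and NOP14 just outside it, and DDX18 at -1.001 and FLG just outside it.

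**Figure D1:**
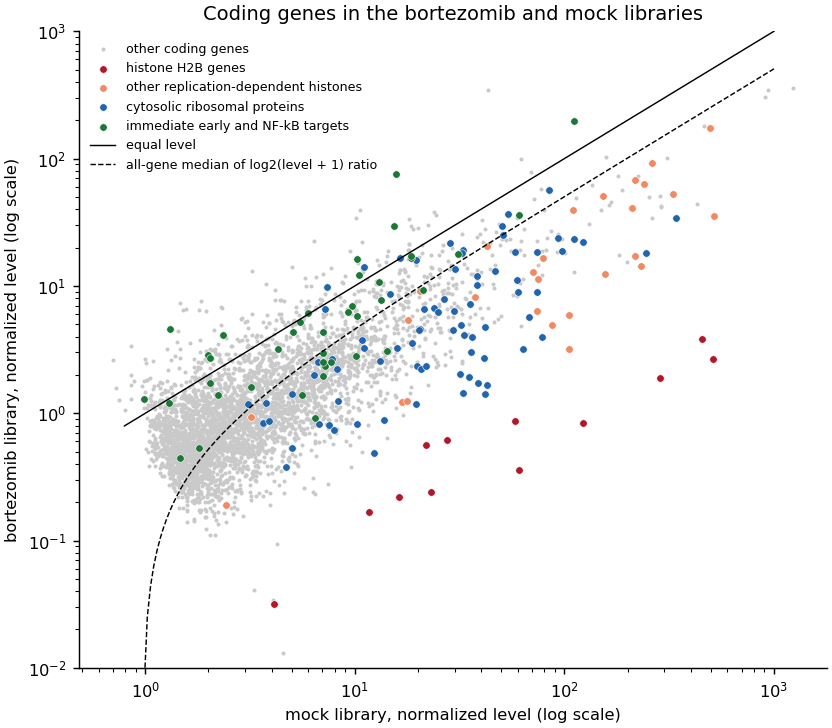
Normalized level of each of the 3954 coding genes with bortezomib (vertical, log scale) and in mock (horizontal, log scale), 1 point per gene. The solid line marks equal levels and the dashed line the all-gene median of the log2(level + 1) ratio; the 12 histone H2B genes lie far below both lines, while JUND and IER3 lie above the line of equal levels.

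The quartiles of the log2 ratio to mock were -1.39 and -0.60 with bortezomib. The 5th and 95th percentiles of the same ratio lay between -0.25 and 0.31 for CGI-1746, LU-102 and their combination. Counting precision was limited in the bortezomib library. Reads behind a level are known roughly, from the level, the transcript length and the signal that a read adds. The median coding gene had about 59.6 reads with bortezomib and about 165 in mock, and 184 coding genes with bortezomib, against 1 in mock, had fewer than about 10. Intervals below are exact Clopper-Pearson intervals at 95% on these approximate reads, and they cover counting error only. Some genes named below share exons with a gene on the opposite strand, among them CEBPB, CHPF, SQSTM1, SYVN1, EIF4A2, TYMS, KIF20A and CCNA2. Whether counting used strand is not stated, so reads of such pairs cannot be told apart.

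The line was checked against its markers. VIM, AXL, CD44, S100A4, LGALS1, CAV1, MSN and SNAI2, which mark mesenchymal breast cancer lines, had mock levels of 4.85 (SNAI2) to 92.1 (VIM). Epithelial genes were present as well, among them KRT18 at a mock level of 35.5, CLDN4 at 18.1, KRT19 at 12.1 and KRT8 at 2.02. CDH1, EPCAM, ESR1 and GATA3, which mark epithelial and hormone-responsive breast cells, and the 13 blood and endothelial markers were not analysed here.

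The lowest coding genes were histone genes, and among them the H2B genes stood apart by size. Histone proteins package DNA into nucleosomes, and the replication-dependent histone genes are transcribed mainly in S phase into short transcripts that carry no poly(A) tail. All 42 replication-dependent histone genes compared were below the all-gene median, 29 were relatively lower at 2-fold or more, and none was higher. Their median relative log2 ratio was -2.01, against -0.01 over all coding genes. The median was -1.60 when each gene was set against genes of like mean level. For comparison, 7.87% of all coding genes were relatively lower, or 15.3% of those with the mock level needed to be counted so. In the tenth of genes with the highest mean level 33.6% were lower.

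The 12 H2B genes, which encode a partner of H2A in the nucleosome, had a summed level of 12.3 with bortezomib and 1597 in mock, or 0.768% of mock. Every other histone family kept a larger share. The H2A genes kept 20.5%, the H3 genes 20.3%, the H4 genes 21.5% and the 2 H1 genes 7.93% of their summed mock level. All 12 H2B genes were relatively lower at 2-fold or more, against 8 of 12 H2A genes, 4 of 8 H3 genes, 3 of 8 H4 genes and both H1 genes. The share kept was thus uneven between families whose proteins are assembled into the same particle.

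H2BC17 (chr6:27893425-27893891), a gene of the large histone cluster, had a level of 2.65 with bortezomib, against 490 with CGI-1746, 486 with LU-102, 502 with their combination and 514 in mock. The bortezomib library stood far below the 4 others, which lay close together. Its relative log2 ratio was -6.16, the lowest of all coding genes. The bortezomib level was 0.515% of mock, with an interval of 0.326 to 0.774% on about 23 reads with bortezomib and 4045 in mock.

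H2BC11 had a level of 1.90 with bortezomib and 285 in mock, H2BC4 had 3.81 with bortezomib and 452 in mock, and H2BC15 had 0.838 with bortezomib and 123 in mock. These were 0.667%, 0.841% and 0.681% of mock. For each of them the CGI-1746, LU-102 and combination libraries were all above mock. H2BC3, H2BC6, H2BC12 and H2BC21 kept 1.51%, 2.26%, 2.59% and 1.35% of mock. H2BC13, H2BC14, H2BC5 and H2BC18 had about 3 reads or fewer with bortezomib, so their ratios carry wide intervals. The interval of H2BC18 ran from 0.0169 to 3.80% of mock around a value of 0.766%, that of H2BC5 from 0.141 to 4.32% around 1.43%, that of H2BC14 from 0.119 to 3.63% around 1.04% and that of H2BC13 from 0.121 to 1.73% around 0.587%. H2B genes are near-identical in their coding part, and how reads that match several copies were assigned is not stated.

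Outside H2B, the histone genes differed widely. H2AC20 had a level of 3.20 with bortezomib and 105 in mock, H2AC4 had 5.86 with bortezomib and 105 in mock, and H2AC17 had 14.4 with bortezomib and 233 in mock, for relative log2 ratios of -3.68, -2.97 and -2.95. At the other end H2AC13 had 20.7 with bortezomib and 42.8 in mock (-0.03), and H2AC21 had 9.12 with bortezomib and 20.5 in mock (-0.11). Against genes of like mean level both were above the middle, at 0.43 and 0.35. H4C2 was the most abundant histone gene that remained with bortezomib, at 174, against 497 in mock. The replacement histones, which are made outside S phase and have poly(A) tails, had a median relative log2 ratio of -0.13 over 9 genes, a value whose sign turns positive (0.15) against genes of like mean level. Of these H3-5 was higher, at 10.004 with bortezomib and 5.87 in mock, and H2AZ1 was lower, at 18.0 with bortezomib and 101 in mock. H3-5 is a near-identical retrocopy of H3-3B, so its value is uncertain.

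The promoters of H2B genes are known to carry an octamer bound by the POU factor Oct-1. This motif was searched as ATTTGCAT or its reverse complement ATGCAAAT, which covers both strands, from 250 bases before to 50 after the gene start. It was present in 9 of 12 H2B promoters and in 7 of 26 promoters of other replication-dependent histones (26.9%). All 7 were promoters of H2A genes. The H2AC17 gene (chr6:27892699-27893185) reaches into the H2BC17 window, chr6:27893175-27893474, and both genes held 1 match. The same octamer may therefore be counted for an H2A and an H2B gene, and how many are shared was not tested. The motif was present in 1.45% of the 3312 promoters of coding genes compared that had a sequence, and in 1.80% of all 27305 promoters. The H2B genes without a match were H2BC5, H2BC13 and H2BC15. None of the 246 promoters of other genes that were relatively lower held it, and 4 of the 180 promoters of relatively higher genes did. Among these was JUND, the gene with the highest relative ratio after WDR74, whose value is uncertain. The promoters of H2BC17, H2BC11 and JUND are shown because each carries the octamer, while the genes lie at opposite ends of the ratio. On the gene's strand H2BC17 and JUND carry it as ATGCAAAT and H2BC11 as ATTTGCAT. Sequences here are from RefSeq, build GRCh38.p14, written 5′ to 3′ on the gene's strand, with the octamer in capitals.
H2BC17, chr6:27893175-27893474, plus strand: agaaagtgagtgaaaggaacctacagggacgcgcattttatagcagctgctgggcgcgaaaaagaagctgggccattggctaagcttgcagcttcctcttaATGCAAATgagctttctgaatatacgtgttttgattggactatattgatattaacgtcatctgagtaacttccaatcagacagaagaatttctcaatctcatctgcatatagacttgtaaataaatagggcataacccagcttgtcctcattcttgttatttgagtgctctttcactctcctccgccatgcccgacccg
H2BC11, chr6:27132746-27133045, minus strand: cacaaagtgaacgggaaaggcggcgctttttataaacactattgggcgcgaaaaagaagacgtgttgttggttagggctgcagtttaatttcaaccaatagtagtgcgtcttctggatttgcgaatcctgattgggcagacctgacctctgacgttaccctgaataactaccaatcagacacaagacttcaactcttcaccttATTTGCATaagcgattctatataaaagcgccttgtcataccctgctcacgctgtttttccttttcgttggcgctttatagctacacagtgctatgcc
JUND, chr19:18281573-18281872, minus strand: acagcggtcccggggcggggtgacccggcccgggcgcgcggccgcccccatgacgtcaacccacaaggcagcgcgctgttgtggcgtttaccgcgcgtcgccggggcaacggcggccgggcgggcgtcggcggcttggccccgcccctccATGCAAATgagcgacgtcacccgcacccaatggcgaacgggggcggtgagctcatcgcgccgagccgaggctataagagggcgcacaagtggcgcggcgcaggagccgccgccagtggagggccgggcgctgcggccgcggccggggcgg
The octamer began 149 bases before the start of H2BC17, 47 before that of H2BC11 and 100 before that of JUND. A match describes letters in a window and is not a measurement of binding.

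The highest coding genes were a mixed group that included transcription factors of the immediate early class. JUND (chr19:18279694-18281622), an AP-1 transcription factor encoded by a gene without introns, had a level of 75.3 with bortezomib, against 15.04 with CGI-1746, 13.6 with LU-102, 16.1 with their combination and 15.8 in mock. Only the bortezomib library was high. The level was 4.77-fold that of mock, with an interval of 4.34 to 5.26 on about 2700 reads with bortezomib and 512 in mock, and the relative log2 ratio was 3.17.

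WDR74, a ribosome biogenesis factor, was listed higher still, at 344 with bortezomib and 43.2 in mock. An exon of WDR74 contains the small nuclear RNA gene RNU2-2P on the same strand, so reads of the pair cannot be told apart, and the value is uncertain. VHL, the substrate receptor of a ubiquitin ligase that targets hypoxia-inducible factors, had a level of 13.0 with bortezomib and 3.22 in mock, a relative log2 ratio of 2.71. CEBPB, a C/EBP transcription factor, had 14.1 with bortezomib and 5.01 in mock, a relative log2 ratio of 2.31. CTSF, a lysosomal cysteine protease, had 6.53 with bortezomib and 1.57 in mock. HES4, a transcriptional repressor of the Hes family, had 6.45 with bortezomib and 1.52 in mock. In all of these genes the bortezomib level exceeded every other library.

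The remaining genes of the 15 highest were RTL8C, SELENOM, CCDC85B, RTL8A, TP53I13, ZNF358, MIDN, CHPF and RTL8B, with relative log2 ratios of 2.22 (RTL8B) to 2.78 (RTL8C). RTL8A, RTL8B and RTL8C are near-identical genes derived from a retrotransposon, and their separate values are uncertain. MIDN, whose product carries substrates to the proteasome without ubiquitin, had a level of 6.32 with bortezomib and 1.95 in mock. SELENOM, a selenoprotein of the endoplasmic reticulum, had 7.38 with bortezomib and 1.47 in mock.

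**Figure D2:**
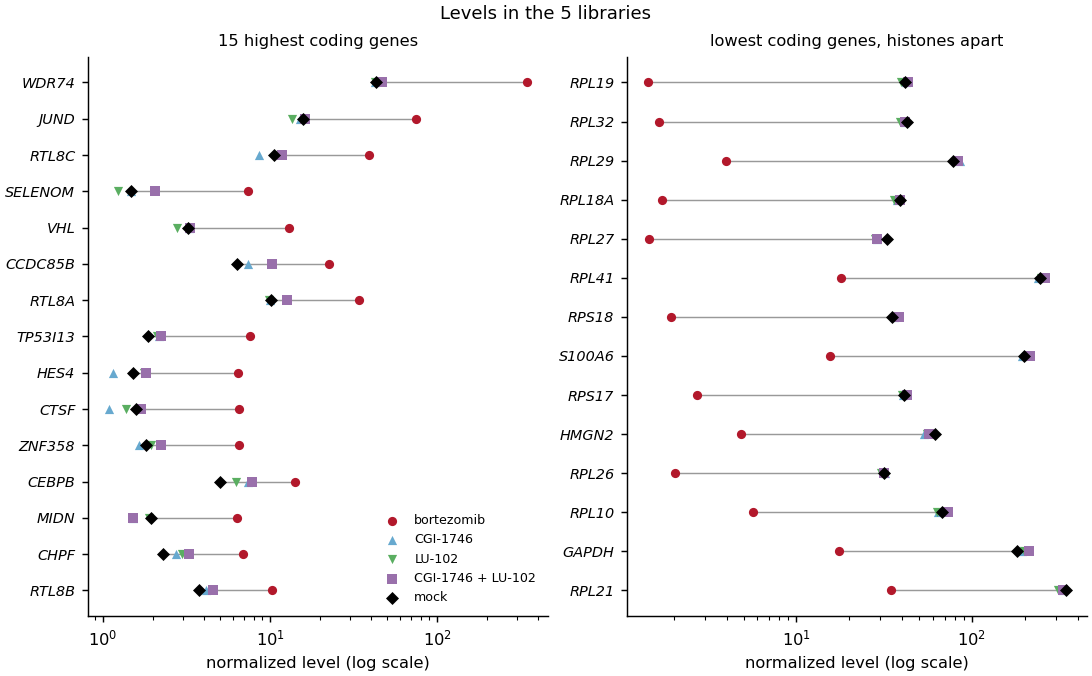
Normalized level (horizontal, log scale) in the 5 libraries of the 15 coding genes with the highest relative log2 ratio (left) and of 14 of the 15 with the lowest once the replication-dependent histones were set apart (right); genes had a level of at least 5 with bortezomib or in mock. The bortezomib library lies to the right of the CGI-1746, LU-102, combination and mock libraries in every gene of the left panel and to the left of them in every gene of the right panel.

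Immediate early genes, which are transcribed within minutes of a stimulus and give short-lived transcripts, lay above the middle on the relative scale. Of 23 compared, 6 were relatively higher, none was lower and 15 were above the all-gene median. Their median relative log2 ratio was 0.27, and as deposited it was -0.71. FOSB, a partner of JUN proteins in AP-1, had a level of 4.57 with bortezomib and 1.31 in mock, a 3.48-fold ratio with an interval of 2.71 to 4.45. IER3, a stress-induced regulator of cell survival, had 199 with bortezomib, 106 with CGI-1746, 101 with LU-102, 111 with their combination and 111 in mock, for a relative log2 ratio of 1.81. An antisense gene overlaps IER3. The others that were higher were IER5 (1.61), JUNB (1.26) and GADD45B (1.18). FOSL1, another AP-1 member, stood at the low end, with 3.06 with bortezomib and 14.2 in mock (-0.93), and EGR1 had 0.534 with bortezomib and 1.80 in mock (0.11). Solute carriers, which move small molecules across membranes, also lay above the middle, with 44 of 64 above the all-gene median, 5 higher and 1 lower, the mitochondrial carrier SLC25A5 (-1.94). Their median was 0.32, and as deposited it was -0.66. The count of 5 higher carriers is close to the 5.84% of all coding genes that were higher.

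NF-kB targets and cytokines had the highest median of the lists examined. Among all coding genes 5.84% were relatively higher and 7.87% lower. Of the 17 compared in this list, 4 were relatively higher, none was lower and 15 were above the all-gene median, against 1936 of 3954 over all coding genes. The median relative log2 ratio was 0.82, and as deposited it was -0.16. CXCL8, which encodes the neutrophil attractant interleukin 8, had a level of 29.7 with bortezomib, against 11.01 with CGI-1746, 11.8 with LU-102, 9.70 with their combination and 15.4 in mock. Of the 4 inhibitor libraries, only the bortezomib library was above mock for this gene. CSF2, the granulocyte-macrophage growth factor, had 4.11 with bortezomib and 2.34 in mock, a relative log2 ratio of 1.59. CXCL1 (1.35) and IL6 (1.19) were also higher, and PTX3 lay just outside the threshold. NFKBIA, the NF-kB inhibitor, had 6.23 with bortezomib and 9.30 in mock, a relative log2 ratio of 0.47. At the low end were IL24, with 2.83 with bortezomib and 10.1 in mock (-0.55), and BIRC2, with 0.920 with bortezomib and 6.48 in mock (-0.98).

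Heat shock chaperones split, with the inducible HSP70 genes high and the abundant constitutive chaperones low. Of 25 cytosolic heat shock genes compared, 3 were relatively higher and 4 lower, against 5.84% and 7.87% of all coding genes. The median relative log2 ratio was -0.26, and it was 0.03 against genes of like mean level. HSPA6, a strictly inducible HSP70 gene, had a level of 4.44 with bortezomib, against 2.92 with CGI-1746, 1.91 with LU-102, 6.30 with their combination and 1.43 in mock. The bortezomib ratio to mock was 3.10-fold, with an interval of 2.28 to 4.22, and its relative log2 ratio was 2.14. HSPA1B, an inducible HSP70 gene, had 99.5 with bortezomib, against 136 with CGI-1746, 79.7 with LU-102, 284 with their combination and 62.2 in mock. Its copy HSPA1A had 37.98 with bortezomib, against 52.7 with CGI-1746, 31.6 with LU-102, 107 with their combination and 24.0 in mock. As deposited, both were highest with the combination and second with CGI-1746, and their relative log2 ratios with bortezomib were 1.65 and 1.62. The 2 genes encode the same protein, and their separate values are uncertain.

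HSPA8, the constitutive HSP70, had a level of 43.8 with bortezomib and 429 in mock, a relative log2 ratio of -2.28. HSP90AB1, the constitutive HSP90, had 49.7 with bortezomib and 252 in mock (-1.34), and STIP1, which joins HSP70 to HSP90, had 0.865 with bortezomib and 9.18 in mock (-1.47). HSPE1, the mitochondrial chaperonin partner, was the remaining lower gene (-1.06). DNAJB1, an HSP40 that is also a heat shock target, had 4.56 with bortezomib, 23.7 with the combination and 10.6 in mock. Its relative log2 ratio was -0.09. BAG3, a co-chaperone of HSP70, had 1.02 with bortezomib and 1.57 in mock (0.63).

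The heat shock element bound by HSF1 was searched as GAANNTTC or TTCNNGAA, which are each their own reverse complement, so that both strands are covered, and matches may overlap. It was present in 8 of 21 promoters of the chaperones (38.1%), in 9.81% of the promoters of coding genes compared and in 13.7% of all promoters. Relatively higher genes held it in 11.1% and relatively lower genes, histones apart, in 10.2%. The promoters of HSPA6 and HSPA8 are shown because both hold several matches, while HSPA6 was high and HSPA8 low on the relative scale. The matches are in capitals, and where they overlap a single run of capitals holds both.
HSPA6, chr1:161524290-161524589, plus strand: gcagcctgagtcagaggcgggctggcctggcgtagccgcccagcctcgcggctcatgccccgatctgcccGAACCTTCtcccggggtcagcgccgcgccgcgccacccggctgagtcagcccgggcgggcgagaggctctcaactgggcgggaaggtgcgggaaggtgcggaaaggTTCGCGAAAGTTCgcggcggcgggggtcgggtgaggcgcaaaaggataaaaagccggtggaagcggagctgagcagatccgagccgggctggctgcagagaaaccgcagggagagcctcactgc
HSPA8, chr11:123062087-123062386, minus strand: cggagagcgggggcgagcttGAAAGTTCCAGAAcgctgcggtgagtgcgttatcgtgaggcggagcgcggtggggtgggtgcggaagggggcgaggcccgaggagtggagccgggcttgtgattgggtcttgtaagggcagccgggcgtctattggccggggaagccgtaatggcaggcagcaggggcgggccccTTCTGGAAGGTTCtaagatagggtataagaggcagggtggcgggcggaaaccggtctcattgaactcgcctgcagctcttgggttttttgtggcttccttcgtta
HSPA6 held 3 matches and HSPA8 held 4, while DNAJB1, HSP90AB1, STIP1 and HSPE1 held none in this window.

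**Figure D3:**
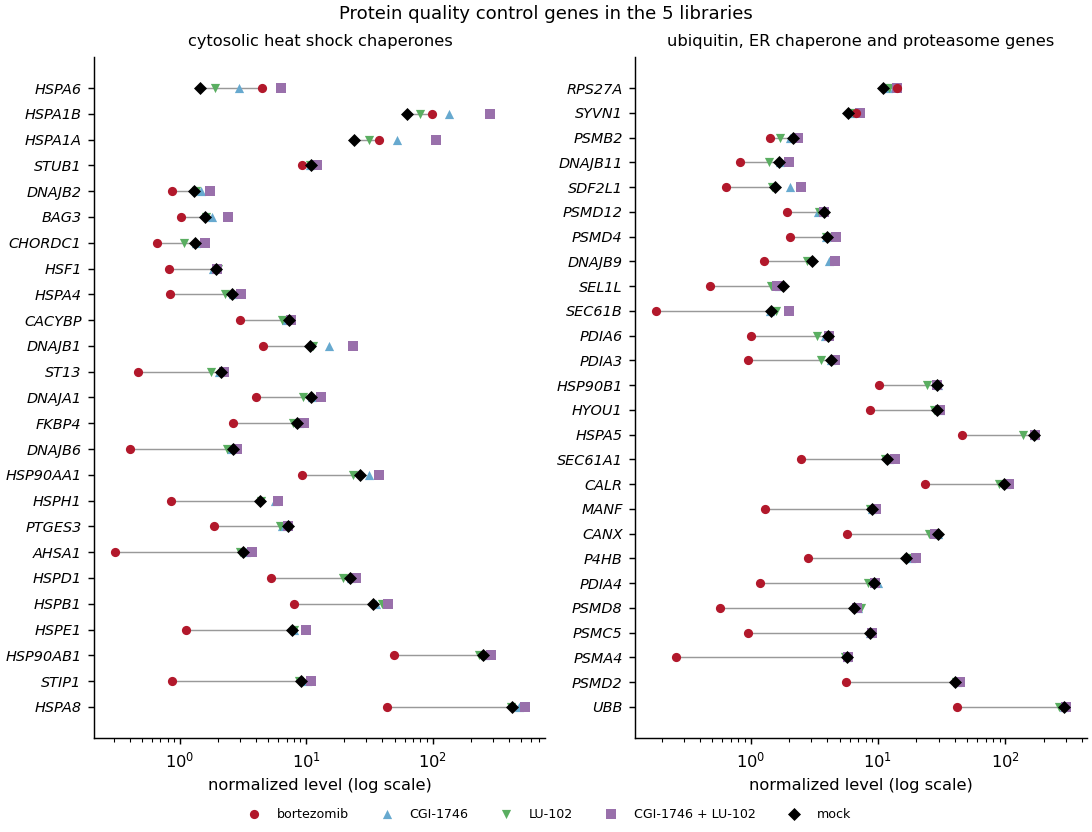
Normalized level (horizontal, log scale) in the 5 libraries of the 25 cytosolic heat shock chaperones (left) and of selected ubiquitin and proteasome genes and the endoplasmic reticulum chaperones (right), ordered by relative log2 ratio with the highest at the top. HSPA6, HSPA1B and HSPA1A have bortezomib levels to the right of mock, HSPA8, HSP90AB1 and UBB have bortezomib levels far to the left of it, and RPS27A and SYVN1 are the genes of the right panel with a bortezomib level above mock.

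Proteasome genes lay somewhat below the middle of the messenger RNA pool. Of 39 subunit and assembly genes compared, none was relatively higher, 6 were lower and 9 were above the all-gene median. Their median relative log2 ratio was -0.45, and it was -0.35 against genes of like mean level. The 9 above the median were 23.1% of the list, against 49.0% over all coding genes. Over all coding genes 7.87% were lower, or 15.3% of those with the mock level needed to be counted so. The count of 6 lower was therefore not taken as a difference from all coding genes. PSMB5, the chymotrypsin-like subunit that bortezomib binds, had a level of 2.08 with bortezomib and 6.57 in mock (-0.32). PSMD2, a large non-catalytic subunit of the regulatory particle, had 5.59 with bortezomib and 40.2 in mock (-1.67), and PSMA4, of the outer ring of the core, had 0.260 with bortezomib and 5.73 in mock (-1.44). PSMB2 was the highest member at 1.42 with bortezomib and 2.15 in mock (0.60). Each of these genes was below all 4 other libraries with bortezomib, as were 92.8% of all coding genes.

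Genes that encode ubiquitin itself lay on both sides of the middle. UBB, a polyubiquitin gene that holds ubiquitin in tandem copies and is stress-inducible in human cells, had a level of 41.5 with bortezomib and 290 in mock, a relative log2 ratio of -1.79. RPS27A, which joins ubiquitin to a ribosomal protein, had 14.0 with bortezomib and 11.03 in mock (1.30). An exon of RPS27A overlaps CLHC1 on the opposite strand, and ribosomal protein genes have many processed copies in the genome. Enzymes and cofactors of ubiquitin conjugation and removal shifted with the pool: 1 of 30 was higher, none was lower, and their median of -0.12 changed sign under other settings. The 1 higher gene was ZFAND2A, an arsenite-inducible proteasome cofactor, with 1.22 with bortezomib and 1.16 in mock (1.02). Its ratio of 1.05 has an interval of 0.498 to 2.07 on about 19.5 reads with bortezomib and 16.8 in mock. Against genes of like mean level its value was 0.89, which is under 2-fold.

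Stress programmes downstream of ATF4 and NFE2L2 were mixed. Of 15 ATF4 and CHOP stress genes compared, 3 were relatively higher, 1 was lower and 10 were above the all-gene median, with a median relative log2 ratio of 0.57 that was -0.41 as deposited. Beside CEBPB, the higher genes were PPP1R15A, the phosphatase subunit that restores translation, with 35.7 with bortezomib and 24.4 in mock (1.51), and PSAT1, of serine synthesis, with 2.50 with bortezomib and 2.30 in mock (1.07). ATF4 itself had 58.0 with bortezomib and 77.5 in mock (0.57). DDIT3, which encodes CHOP, had 0.0410 with bortezomib and 3.31 in mock (-1.07), on about 0.718 reads with bortezomib and 52.4 in mock, and it overlaps MARS1 on the opposite strand. Its ratio of 0.0124 has an interval of 0.000433 to 0.101. Endoplasmic reticulum chaperones lay below the middle as a list, with 5 of 17 lower and 1 higher, and a median of -0.46. Against genes of like mean level that median was -0.29. Shares over all coding genes were 5.84% higher and 7.87% lower, or 15.3% lower among those with the mock level needed. The 1 lower ATF4 and CHOP gene and the 1 higher endoplasmic reticulum chaperone are each close to these shares. HSPA5, the BiP chaperone, had 45.5 with bortezomib and 167 in mock (-0.87), and PDIA4, P4HB and CANX were among the lower ones. SYVN1, the ubiquitin ligase of endoplasmic reticulum degradation, was the higher one, with 6.76 with bortezomib and 5.81 in mock (1.17).

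Among 21 NFE2L2 and redox genes 2 were higher and 2 lower, and the median of -0.05 changed sign under other settings. Both counts are close to the shares over all coding genes, 5.84% higher and 7.87% lower. HMOX1, the haem-degrading enzyme, had a level of 7.80 with bortezomib, against 9.30 with CGI-1746, 5.33 with LU-102, 13.5 with their combination and 4.44 in mock. All 4 inhibitor conditions stood above mock for this gene, as they did for HSPA6, HSPA1A and HSPA1B. SQSTM1, the autophagy receptor p62, had 10.5 with bortezomib and 8.81 in mock (1.20). TXN (-1.08) and PRDX1 (-1.06), a thioredoxin and a peroxiredoxin, were lower. Of the 6 metal-responsive genes none was called in either direction.

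**Figure D4:**
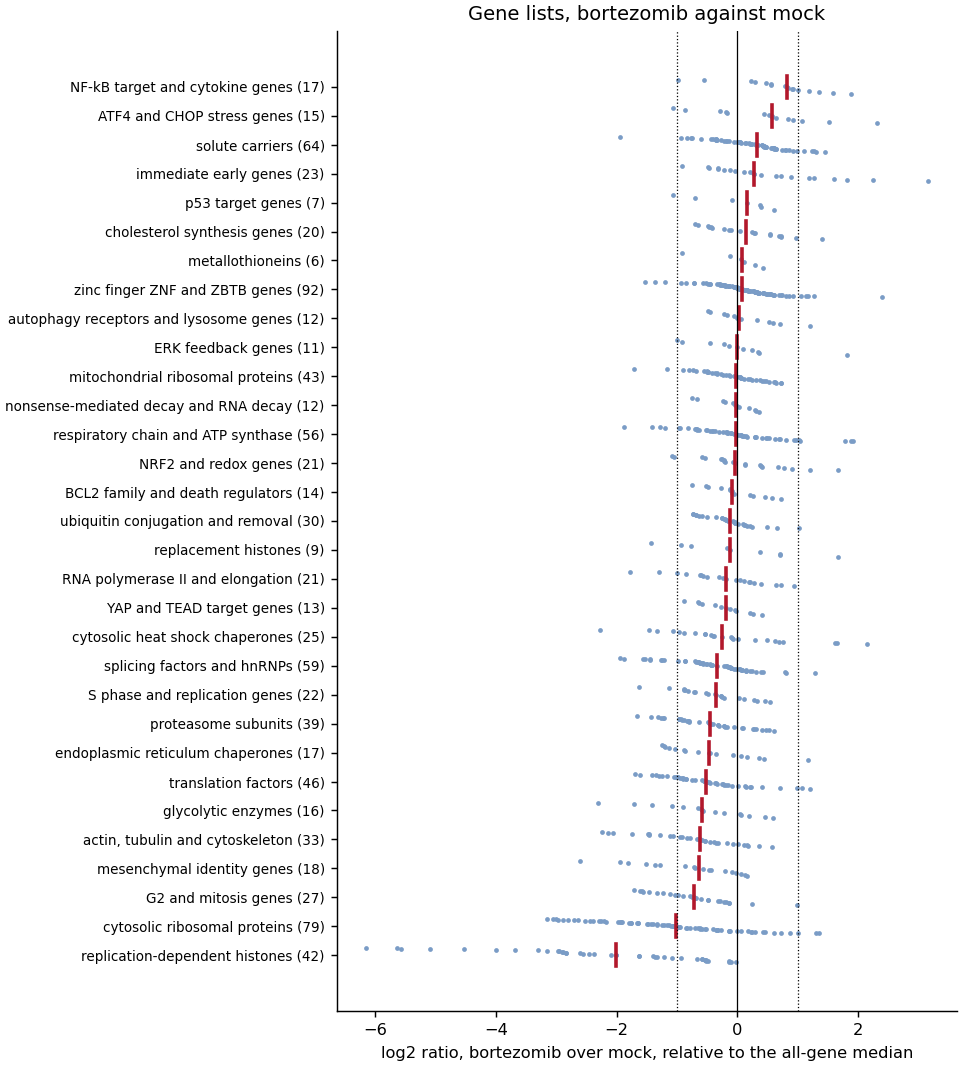
Relative log2 ratio of bortezomib over mock (horizontal) for the members of lists with more than 4 genes compared, 1 point per gene, with the list median as a red bar and the number of genes in parentheses; dotted lines mark 2-fold. Medians run from 0.82 for NF-kB targets and cytokines to -2.01 for replication-dependent histones, and the members of most lists spread over both sides of 0.

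Genes of protein synthesis were also among the lower genes. Of all coding genes 5.84% were higher and 7.87% lower, and 15.3% were lower among those with the mock level needed. In the tenth of genes with the highest mean level 33.6% were lower. Cytosolic ribosomal protein genes had a median relative log2 ratio of -1.02 (-0.61 against genes of like mean level), with 41 of 79 lower and 3 higher. Their median mock level was 28.5. The genes of the same particle differed widely from each other: the bortezomib level was 3.41% of mock in RPL19 and 133% in RPS28, with quartiles of 10.7% and 31.5%. RPL19 had a level of 1.43 with bortezomib, against 42.1 with CGI-1746, 39.3 with LU-102, 43.4 with their combination and 41.8 in mock. RPL32 (-3.06) and RPL29 (-3.01) were the next lowest, and RPS28 (1.34), RPS27A (1.30) and RPS10 (1.01) were higher. An exon of RPS28 overlaps KANK3 on the opposite strand, and RPS10 shares exons with a read-through gene. The median was -0.96 over 28 ribosomal protein genes that host small nucleolar RNAs in their introns and -1.07 over the 51 others. Mitochondrial ribosomal protein genes, by contrast, had a median of -0.02 over 43 genes, with 2 lower and none higher, a median that changed sign under other settings.

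Translation factors (median -0.52, with 10 of 46 lower and 2 higher), splicing factors (-0.35, with 9 of 59 lower and 1 higher) and glycolytic enzymes (-0.58, with 4 of 16 lower and none higher) also lay below the middle. Against genes of like mean level these medians were -0.38, -0.21 and -0.22. Over all coding genes 5.84% were higher and 7.87% lower, and 15.3% were lower among those with the mock level needed to be counted so. GAPDH, a glycolytic enzyme often used as a reference gene, had a level of 17.5 with bortezomib and 181 in mock (-2.32), while TPI1, its neighbour in the pathway, had 23.3 with bortezomib and 55.2 in mock (-0.23). EIF5, a start-codon factor, had 4.30 with bortezomib and 33.1 in mock (-1.70). The splicing regulator HNRNPK had 2.32 with bortezomib and 24.4 in mock (-1.95). In contrast EIF4A2, an RNA helicase of initiation, was higher, with 21.3 with bortezomib and 18.1 in mock (1.21), while its paralog EIF4A1 was lower, with 14.7 with bortezomib and 75.1 in mock (-1.30).

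Genes of G2 and mitosis were low. Of 27 G2 and mitosis genes, 9 were relatively lower, none was higher and 2 were above the all-gene median, with a median of -0.72. MKI67, the proliferation marker, had a level of 2.80 with bortezomib and 23.6 in mock (-1.71), KIF20A, a mitotic kinesin, had 0.231 with bortezomib and 6.41 in mock (-1.61), and CCNA2, cyclin A2, had 2.52 with bortezomib and 19.8 in mock (-1.58). CDC25B, the phosphatase that starts mitosis, was the highest member, with 3.82 with bortezomib and 3.77 in mock (0.99). Of 22 S phase and replication genes 2 were lower, TYMS (-1.63) and MCM7 (-1.13), and the median was -0.36. That count is close to the 7.87% of all coding genes that were lower. The difference between the lists was not tested.

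Structural genes of the mesenchymal line lay below the middle. For comparison, 7.87% of all coding genes were lower, or 15.3% of those with the mock level needed to be counted so. In the tenth of genes with the highest mean level 33.6% were lower. The median mock level was 11.8 in the cytoskeleton list and 12.6 in the mesenchymal list, against 3.05 over all coding genes. Whether level has a part in the counts that follow was not tested. In the cytoskeleton list 10 of 33 were lower and none was higher (median -0.63, and -0.33 against genes of like mean level), led by the myosin light chains MYL12B (-2.25) and MYL12A (-2.15), which are near-identical to each other, and the tubulin TUBB4B (-2.06). In the mesenchymal list 6 of 18 were lower and none was higher (median -0.64, and -0.42 against genes of like mean level), led by S100A6, a calcium-binding protein, with 15.4 with bortezomib and 198 in mock (-2.62). The epithelial junction gene CLDN4 went the other way, with 33.3 with bortezomib, 18.5 with CGI-1746, 20.05 with LU-102, 25.1 with their combination and 18.1 in mock (1.83). Of the 4 luminal and epithelial genes compared, CLDN4 was higher and KRT18 (-1.47) lower, and the list has no common direction.

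Several groups had medians near the middle of the pool. No member of the BCL2 family list (14 genes), the YAP and TEAD target list (13) or the RNA decay list (12) was called in either direction, and the medians of these lists changed sign under other settings. Of 7 genes in the p53 target list 1 was lower, PLK2 (-1.07), and CDKN1A had 4.26 with bortezomib and 7.05 in mock (0.37). Of 20 cholesterol synthesis genes 1 was higher, MVD, with 1.62 with bortezomib and 0.964 in mock (1.40), and none was lower. Respiratory chain genes had 5 of 56 higher and 4 lower, among them NDUFV3 (1.91) and ATP5F1B (-1.88), with a median of -0.03 that changed sign under other settings. These counts are close to the 5.84% higher and 7.87% lower over all coding genes. The lists of zinc finger genes, RNA polymerase II genes, ERK feedback genes and autophagy genes had medians of 0.08, -0.18, 0.00 and 0.02, all of which changed sign under other settings.

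The relative ratio also followed properties of the transcripts. Among coding genes other than replication-dependent histones with a transcript in GENCODE 29, the relatively higher genes had a median GC content of 59.0%, the relatively lower 51.2% and the others 51.0%. In the quintile of highest GC content the median relative log2 ratio was 0.39 and 13.8% of genes were higher, while in the quintile of lowest GC content it was -0.10 and 1.67% were higher. Across genes, Spearman's rho of the relative log2 ratio with GC content was 0.29, and it was 0.31 against genes of like mean level. Genes share the same pair of libraries in these figures and are not independent replicates.

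Genes without introns stood high once histones were set apart. Of 131 such genes 19.8% were relatively higher, against 5.35% of 3756 genes with introns, and their medians were 0.30 and -0.01. JUND, CEBPB, HSPA6, HSPA1B and CCDC85B are of this kind. Within the quintile of highest GC content 37.5% of 32 genes without introns and 12.7% of 746 genes with introns were higher. The replication-dependent histone genes, a class known for lacking introns, lay at the opposite end. The relative ratio was lower in genes of higher level: Spearman's rho with the mean level of bortezomib and mock was -0.36, and in the tenth of genes with the highest mean level 33.6% were relatively lower and 9.09% higher. Histones apart, the lower genes had a median mock level of 14.0, the higher genes 2.30 and the others 2.80. The trend of the ratio with level and the high level of the lower genes are partly built in. The constant added to each level draws the log2 ratios of low-level genes toward no change, which lies above the subtracted median. A gene also needed a mock level of at least 2.94 to be counted as lower. How much of the trend remains apart from these effects was not tested. Whether GC content, exon number or level has a part in the place of any list above was not tested.

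**Figure D5:**
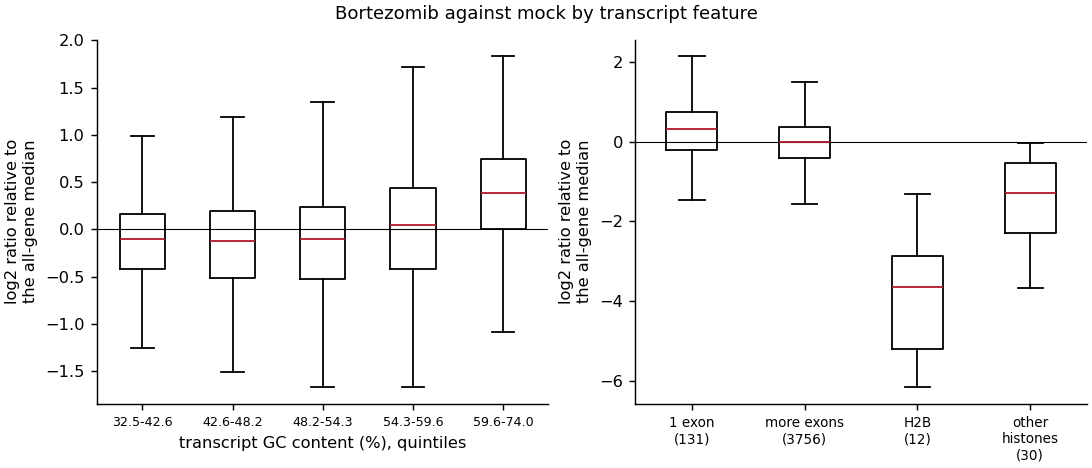
Relative log2 ratio of bortezomib over mock (vertical) by quintile of transcript GC content (left, histones set apart) and by exon number and histone class (right, number of genes in parentheses); boxes span the quartiles with the median in red, and whiskers reach the last gene within 1.5 box lengths. The highest GC quintile has a median of 0.39, genes with 1 exon have a median of 0.30, and the 12 H2B genes have a median of -3.65.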

How the data were processed

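MDA-MB-231 total RNA gave 1 library for each of 5 conditions, read as pairs of 150 bp, per the labels. The values deposited by the authors are a normalized signal, headed as least squares means, for each gene in each library. Partek and hg38 are named in the submitters' processing notes. Neither aligner, annotation, strand, filter nor normalization is stated in the sources. On 36 short RNA genes with bortezomib and 43 in mock, level times length was within 0.1 of a multiple of 0.5 reads for 35 with bortezomib and 40 in mock, at 53.8 per read with bortezomib and 59.4 in mock. These units gave the approximate reads. The columns of ratios, p-values and false discovery rates were not used, nor were 7 repeated level columns.

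Gene symbols were matched to RefSeq (4185 of 4202 genes, 61 by synonym). Transcript features came from GENCODE 29 and promoters from RefSeq, build GRCh38.p14. For genes of like mean level, the median of 10 bins was subtracted. Genes named are the 15 highest and 15 lowest that reached a level of 5, the 15 lowest without histones, the 10 at each end with a mock level of at least 20, and the 3 highest and 3 lowest of each list. Others were chosen after their values were seen: PSMB5, HSPA5, HSPE1, DNAJB1, BAG3, ATF4, NFKBIA, IL6, PTX3, EGR1, IER5, JUNB, GADD45B, TPI1, EIF4A1, H4C2, H2BC5, H2BC12, H2BC18 and H2BC21, beside the genes nearest the thresholds and the identity markers. The members and the 34 lists were chosen with earlier results of these data known.

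Alternatives were pseudocounts of 0.25 and 5 in place of 1, a minimum level of 5 or none, 2 other centres and 2 other scalings. The script that makes the 2-fold calls was checked on simulated levels with known changes. Some genes that meet the naming rule are left out of the text and figures. Versions were Python 3.11.15, scipy 1.17.1, pandas 2.3.3, matplotlib 3.10.9 and numpy 2.4.6.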

Additional observations from a re-analysis of the deposited data

How the results depend on the processing

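No paired analysis was possible because each condition has 1 library. Counts of coding genes depended on the scale. With a pseudocount of 0.25 the all-gene median log2 ratio was -1.40, and 33 genes were higher as deposited and 488 on the relative scale. With a pseudocount of 5 the median was -0.38, and 6 genes were higher and 463 lower as deposited, with 24 higher on the relative scale. With a minimum level of 5 the median was -1.43, and 927 genes were lower as deposited and 136 on the relative scale; fewer genes were compared. Centred on genes of like mean level, 170 genes were relatively lower. With median-of-ratios scaling the median was -0.46, with 147 genes higher and 744 lower before it was subtracted and 366 relatively higher after. Scaled to the same summed coding level, the median log2 ratio was -0.0392, with 398 genes higher and 329 lower before it was subtracted and 431 relatively higher after.

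Of 121 named genes that were 2-fold on the relative scale, 69 stayed 2-fold in the same direction under all 8 alternatives, among them JUND, IER3, CXCL8, HSPA1B, HSPA8, UBB, PSMD2 and MKI67; HSPA6, HSPA1A, FOSB, HMOX1 and DDIT3 did not. Of 33 lists with at least 4 genes, 17 kept the sign of their median, and 16 did not. With 1 library per condition, variation between cultures is unknown, and depth limits genes with few reads in the bortezomib library.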
